A study of Homo sapiens with 18 samples.

Results

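The simple-epithelial keratins KRT7, KRT8, KRT18, KRT19 and KRT80 were followed in HaCaT and TIGK keratinocytes before and after a scratch wound. They were taken by gene name from the deposited count table, which held 1 row for each of the 5 symbols among its 58735 genes, and all 5 were kept by the filter on low counts, which left 17409 genes for testing. RNA came from HaCaT, an immortal line of skin keratinocytes, at 6 h and 24 h after scratching and from unscratched HaCaT at 0 h, and from TIGK, a telomerase-immortalised line of gingival (gum) keratinocytes, at the same 3 times. Each of the 6 groups held 3 libraries, lettered A to C in the tables. Each tissue is represented by 1 line, so tissue and line cannot be told apart, and there was no unscratched culture kept to 24 h, so time since scratching and time in culture cannot be told apart either. The series set oral beside skin keratinocytes to ask how their transcriptomes differ during wound closure.

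Keratins are intermediate filament proteins that assemble as pairs of a type I and a type II chain, so that a cell needs both types to build filaments. KRT8 (type II) and KRT18 (type I) form the pair of simple, single-layered epithelia such as liver and gut. KRT7 (type II) is typical of ducts and glands. KRT19 (type I), the smallest keratin, occurs in simple epithelia and also in basal cells of non-cornified oral mucosa. KRT80 (type II) is found in many epithelia and lies close to desmosomes in cells that differentiate. Stratified keratinocytes build most of their filaments from other chains, chiefly KRT5 with KRT14.

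The type II members KRT7, KRT8 and KRT80 and the type I member KRT18 all lie in the keratin cluster of chromosome 12, and KRT19 lies in that of chromosome 17. In hg38 coordinates of the deposited table KRT7 spans 52232520 to 52252186 on the plus strand, KRT80 spans 52168996 to 52192000 on the minus strand, KRT8 spans 52897187 to 52949954 on the minus strand and KRT18 spans 52948871 to 52952901 on the plus strand. KRT19 spans 41523617 to 41528308 on the minus strand of chromosome 17. KRT80 and KRT7 are 40.5 kb apart and are transcribed on opposite strands. The spans of KRT8 and KRT18 overlap by 1084 bases on opposite strands, and 525 bases belong to annotated exons of both.

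Keratins share a common plan, and parts of their messages look alike. The following stretches of 60 bases of the type I members code for the end of the central rod domain, the most conserved part of keratins, and are shown to compare them at one place. They come from the GENCODE v29 transcripts KRT18-201 and KRT19-201, and the capitals mark the 18 bases that code for the same 6 amino acids in all 5 proteins.
KRT18: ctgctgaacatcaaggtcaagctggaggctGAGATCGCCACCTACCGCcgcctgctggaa
KRT19: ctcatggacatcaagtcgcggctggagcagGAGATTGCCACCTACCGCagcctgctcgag

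In these stretches KRT18 and KRT19 were identical at 45 of 60 bases. The longest run shared exactly by their transcripts was 17 bases. These values are for the type I members alone and say nothing of how alike the type II members are. The reading frames code for 469 (KRT7), 483 (KRT8), 452 (KRT80), 430 (KRT18) and 400 (KRT19) amino acids, and KRT19 has the shortest tail, with 19 residues after the shared 6 against 49 to 91 in the others.

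Windows of 100 bases of the 5 transcripts were sought on either strand in the GENCODE transcripts of all other genes. None of the windows of KRT19 or KRT80 was found elsewhere. For KRT7, 127 of 1655 windows were found elsewhere, all of them in KRT7-AS, the antisense RNA that overlaps KRT7 by 2401 bases. For KRT18, 243 of 1463 were found, all of them in transcripts of KRT8, which lies on the opposite strand. KRT8 had 157 of 2027 windows in 5 other genes, KRT18 and pseudogenes of KRT8 among them. Whether the libraries kept strand information is not given in the sources used here, so reads of KRT7 and KRT7-AS, and reads from the exons that KRT8 and KRT18 share, may not be told apart.

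KRT8 has many processed pseudogenes, copies of its message inserted elsewhere in the genome. The copy with most counts was KRT8P12 on chromosome 3. The 122 keratin pseudogenes of this family in the table held 152 to 329 counts per library, 0.312% of the counts of KRT8, KRT18 and KRT19 together. KRT8P12 held 2064 of them over the 18 libraries. At 0 h its counts did not follow those of KRT8: it was 1.59-fold higher in HaCaT than in TIGK (edgeR adjusted p = 0.00787), where KRT8 was lower in HaCaT. It was 2.14-fold higher at 6 h (adjusted p = 9.98e-05) and not called at 24 h (adjusted p = 0.0676). The copy with the next most counts, KRT8P3, was lower in HaCaT at 0 h, as KRT8 was (log2 -1.51, adjusted p = 0.00299). KRT8P3 was not called at 6 h or 24 h. All pseudogenes of KRT8 together held 1.56% of the count of KRT8.

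Library totals ran from 14238090 to 25011331 counts. Levels are given as CPM, counts scaled to a common library size after TMM normalisation. Apart from shares of counts, which are not corrected for gene length, levels of different genes are set side by side only as the authors' FPKM. FPKM also divides by gene length. In TIGK, library C of 0 h had counts in 26246 genes and library C of 6 h in 25161, against 21164 to 22799 in the other 16 libraries. TERT, the telomerase gene put into TIGK, averaged 38.1 ± 5.51 CPM in TIGK and 5.68 ± 0.798 CPM in HaCaT at 0 h (SD, n = 3), the direction the names of the lines call for. The 6 keratinocyte markers were detected in both lines, at a summed 35710 to 39240 CPM in HaCaT and 30030 to 39780 CPM in TIGK. Fibroblast markers (6 genes) summed to 20.9 to 40.5 CPM in HaCaT libraries and 235 to 434 CPM in TIGK libraries, there mostly DCN and COL1A1, and their part in the results below was not tested. In such bulk RNA, fewer cells that express a gene and less of its RNA per cell cannot be told apart. PDGFRA was at 0 in every HaCaT library. Summed melanocyte, immune cell and endothelium markers reached at most 8.16 CPM in any library.

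At every time the 2 lines differed in all 5 keratins, in the same pattern. KRT7 and KRT80 were higher in HaCaT, and KRT8, KRT18 and KRT19 were lower in HaCaT. Each of these 15 differences passed the threshold (edgeR quasi-likelihood test, Benjamini-Hochberg adjusted p under 0.05). The background was high: 62.6% of all genes tested were called between the lines at 0 h, 62.6% at 6 h and 61.7% at 24 h, so a call by itself says little about these genes and the sizes below carry the description. The median log2 fold change of the 5 was -0.66 at 0 h, -0.52 at 6 h and -0.57 at 24 h, against -0.04, -0.02 and -0.05 over all genes. Each of these medians is the value of KRT18, with members on both sides of 0, and does not describe the group as a whole.

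**Figure D1:**
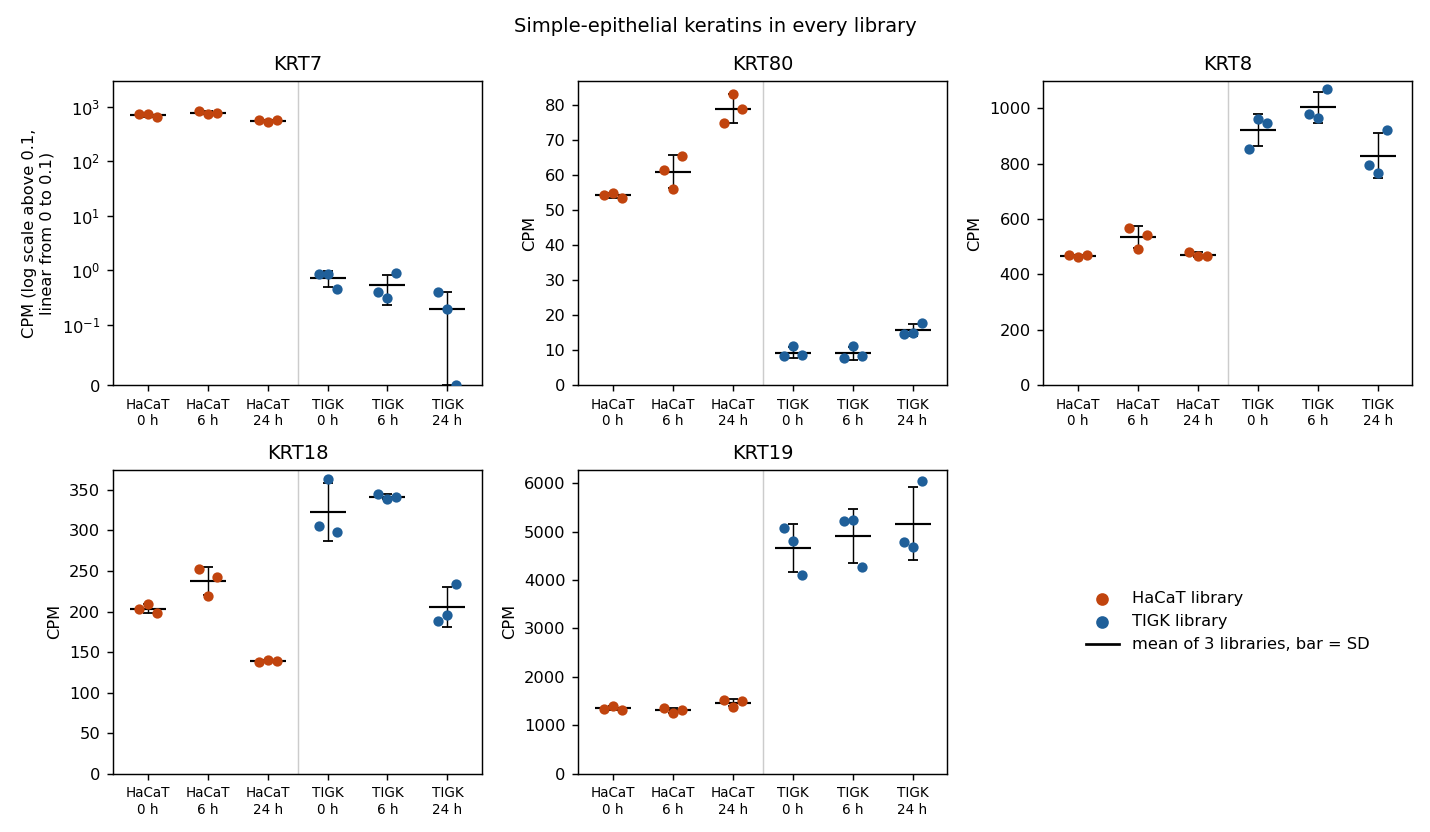
Level of each keratin in every library, in CPM, by line and time after the scratch. Points are libraries, lines are means of 3 and bars are SD; the KRT7 axis is logarithmic above 0.1 and linear below it. KRT7 sits above 500 CPM in every HaCaT library and below 1 CPM in every TIGK library, and for KRT8 and KRT19 every TIGK library lies above every HaCaT library.

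Of the 5, KRT7 was the keratin that divided the lines most. It stood at 735, 745 and 651 CPM in the HaCaT libraries A to C at 0 h, at 845, 745 and 785 CPM at 6 h and at 566, 523 and 578 CPM at 24 h. In TIGK it stood at 0.86, 0.865 and 0.454 CPM at 0 h, at 0.399, 0.313 and 0.874 CPM at 6 h and at 0.393, 0.196 and 0 CPM at 24 h. These TIGK levels rest on 14, 15 and 12 counts at 0 h, on 6, 5 and 16 counts at 6 h and on 6, 3 and 0 counts at 24 h, whereas each HaCaT library held 7670 to 13301 counts. In the TIGK library without a count, 3 counts (0.205 CPM) is the level that a count of 0 allows, by counting error only. The lines did not overlap at any time. The log2 fold change, HaCaT over TIGK, was 9.999 ± 0.19 (SE) at 0 h, 10.48 ± 0.19 at 6 h and 11.39 ± 0.22 at 24 h (adjusted p = 3.2e-22, 3e-22 and 7.79e-22). These SE are derived from the F statistic and understate the error that comes with so few TIGK counts. With single libraries left out, the 0 h value ran from 9.67 to 10.16. The 6 h value ran from 10.22 to 11.09 and the 24 h value from 10.85 to 12.33.

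The neighbours of KRT7 in the cluster were read beside it, within 100 kb on either side. KRT7-AS averaged 6.54 CPM at 0 h, 6.48 CPM at 6 h and 8.62 CPM at 24 h in HaCaT, and its only counts in TIGK were at 0 h, where the mean was 0.041 CPM. The hair keratin KRT81, 33726 bases away, averaged 24.2, 23.9 and 19.6 CPM at the 3 times in HaCaT and 2.18, 0.935 and 0.311 CPM in TIGK. KRT87P, a pseudogene that overlaps KRT7 by 1721 bases, averaged 5.81, 6.38 and 5.04 CPM in HaCaT and 0.0788, 0.0444 and 0 CPM in TIGK. KRT86, which overlaps KRT7 by 2887 bases on its own strand, was the exception, at 1.14, 1.02 and 1.74 CPM in HaCaT and 3.15, 1.64 and 2.13 CPM in TIGK. KRT7 thus lay in a stretch where several, but not all, genes with counts were lower in TIGK. Of these, KRT7-AS and KRT87P overlap KRT7 on the opposite strand. Counts of KRT7-AS may include reads of KRT7, since strand information is not given. KRT81 and KRT86 are close copies of each other, and reads may have been split between them.

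KRT80, on the side of KRT7 away from KRT81, was also higher in HaCaT, by less. Its HaCaT libraries stood at 54.3, 54.9 and 53.5 CPM at 0 h, at 61.4, 56.2 and 65.6 CPM at 6 h and at 74.9, 83.1 and 79.1 CPM at 24 h. The TIGK libraries stood at 8.3, 11.1 and 8.51 CPM at 0 h, at 7.85, 11.3 and 8.3 CPM at 6 h and at 14.5, 14.96 and 17.8 CPM at 24 h. The lowest HaCaT library lay above the highest TIGK library by a wide margin. HaCaT was 5.85-fold higher at 0 h (log2 2.55 ± 0.13 SE, adjusted p = 9.04e-15), 6.68-fold higher at 6 h (2.74 ± 0.13) and 5.02-fold higher at 24 h (2.33 ± 0.12).

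The pair KRT8 and KRT18 was lower in HaCaT. KRT8 stood at 471, 464 and 470 CPM in HaCaT at 0 h, at 568, 491 and 543 CPM at 6 h and at 481, 468 and 467 CPM at 24 h. The TIGK libraries held 855, 963 and 947 CPM at 0 h, 980, 964 and 1069 CPM at 6 h and 797, 768 and 921 CPM at 24 h. No HaCaT library reached the lowest TIGK library. KRT8 was 1.97-fold lower in HaCaT at 0 h (log2 -0.98 ± 0.08 SE, adjusted p = 4.94e-11), 1.88-fold lower at 6 h (-0.91 ± 0.08) and 1.76-fold lower at 24 h (-0.81 ± 0.08).

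KRT18, its partner, stood at 203, 210 and 198 CPM in HaCaT at 0 h, at 252, 219 and 243 CPM at 6 h and at 138, 140 and 140 CPM at 24 h. In TIGK the libraries held 306, 364 and 299 CPM at 0 h, 345, 339 and 341 CPM at 6 h and 188, 196 and 234 CPM at 24 h. Within each time the lines did not overlap, but across times they did: TIGK at 24 h overlapped with HaCaT at 0 h. KRT18 was 1.58-fold lower in HaCaT at 0 h (log2 -0.66 ± 0.08 SE, adjusted p = 2.28e-07), 1.44-fold lower at 6 h (-0.52 ± 0.08) and 1.48-fold lower at 24 h (-0.57 ± 0.09), the smallest of the 5 line differences at each time.

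KRT19, which leads the group per length in both lines, stood at 1340, 1401 and 1320 CPM in HaCaT at 0 h, at 1353, 1257 and 1321 CPM at 6 h and at 1523, 1384 and 1505 CPM at 24 h. TIGK libraries held 5076, 4811 and 4112 CPM at 0 h, 5219, 5237 and 4267 CPM at 6 h and 4779, 4679 and 6038 CPM at 24 h. The lowest values of TIGK at 0 h and at 6 h were those of the libraries C with counts in more genes than the rest, and the highest value of TIGK was that of letter C at 24 h. KRT19 was 3.45-fold lower in HaCaT at 0 h (log2 -1.79 ± 0.10 SE, adjusted p = 4.81e-14), 3.75-fold lower at 6 h (-1.91 ± 0.10) and 3.51-fold lower at 24 h (-1.81 ± 0.10). Of its neighbours, KRT15, only 1087 bases away, went the other way, averaging 508, 522 and 628 CPM in HaCaT and 250, 237 and 255 CPM in TIGK, while KRT13, 17911 bases away, averaged 160, 146 and 182 CPM in HaCaT and 882, 947 and 880 CPM in TIGK.

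**Figure D2:**
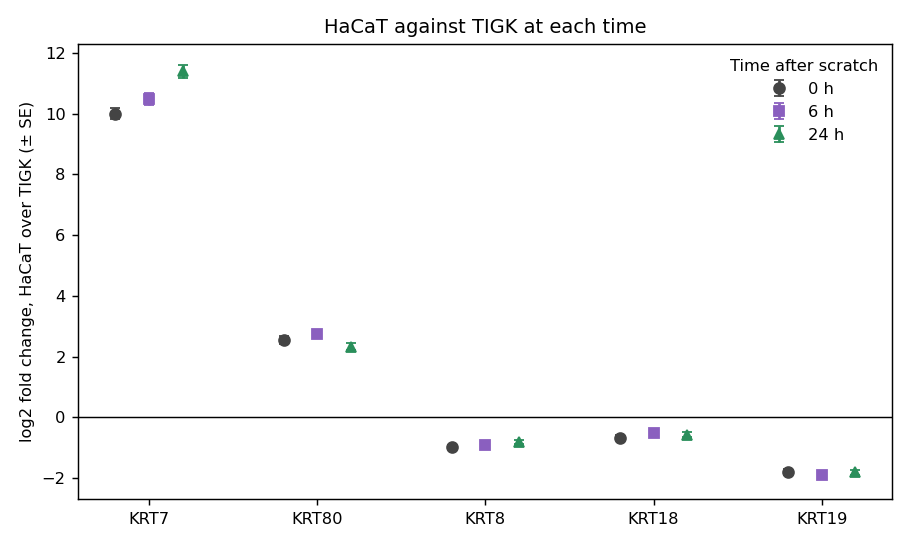
Log2 fold change, HaCaT over TIGK, of each keratin at 0 h, 6 h and 24 h. Bars are the SE derived from the F statistic of the edgeR fit over 18 libraries. For KRT7 these bars understate the error that comes with few TIGK counts. KRT7 lies at 9.999 to 11.39 and KRT80 at 2.33 to 2.74, both above 0, and KRT8, KRT18 and KRT19 lie below 0 at all 3 times.

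The authors' deposited tables of line differences, which list genes past a log2 size of about 1.5, hold KRT7, KRT80 and KRT19 at 0 h, 6 h and 24 h, with log2 fold changes at 0 h of 10.04, 2.57 and -1.76.

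The make-up of the group per length was therefore different in the 2 lines. Of the summed FPKM of the 5 genes at 0 h, KRT19 held 64.6% ± 0.66 in HaCaT and 89.4% ± 1.26 in TIGK (SD, n = 3), KRT7 held 19.3% ± 0.86 in HaCaT and 0.00783% ± 0.00197 in TIGK, and KRT80 held 1.39% ± 0.0285 in HaCaT and 0.0960% ± 0.0153 in TIGK. KRT8 held 7.59% ± 0.30 in HaCaT and 6.05% ± 0.86 in TIGK, and KRT18 held 7.06% ± 0.041 in HaCaT and 4.50% ± 0.48 in TIGK. All these shares depend on the gene lengths in the FPKM, such as 6881 bases for KRT8 and 3218 for KRT18. The principal transcripts of these 2 genes have 2126 and 1562 bases, and the shares were not computed with transcript lengths. The summed level at 0 h was 881 ± 27.7 FPKM in HaCaT and 2199 ± 210 FPKM in TIGK. The type II members together stood at 0.395 ± 0.0134 of the type I members in HaCaT and at 0.0656 ± 0.00983 in TIGK at 0 h, with no overlap between the lines at any of the 3 times; the exact two-sided permutation test gave p = 0.1 each time, the smallest p that 3 against 3 libraries allow. Per length, messages of the simple type I keratins thus exceeded those of the simple type II keratins in both lines, by more in TIGK.

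Among 27 keratin genes, these 5 with 22 keratins of stratified epithelia, the simple-epithelial members were a minority. They took 5.76% ± 0.15 of keratin counts in HaCaT at 0 h, 6.22% ± 0.053 at 6 h and 5.68% ± 0.20 at 24 h (SD, n = 3), and 12.3% ± 0.67, 11.2% ± 0.52 and 11.1% ± 0.66 at the same times in TIGK. All 27 together made up 4.79% ± 0.15 of reads in HaCaT and 4.91% ± 0.063 in TIGK at 0 h. The share held by simple-epithelial keratins in TIGK was mostly KRT19, which alone took 9.69% ± 0.75 of keratin counts at 0 h, against 2.79% ± 0.037 in HaCaT.

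**Figure D3:**
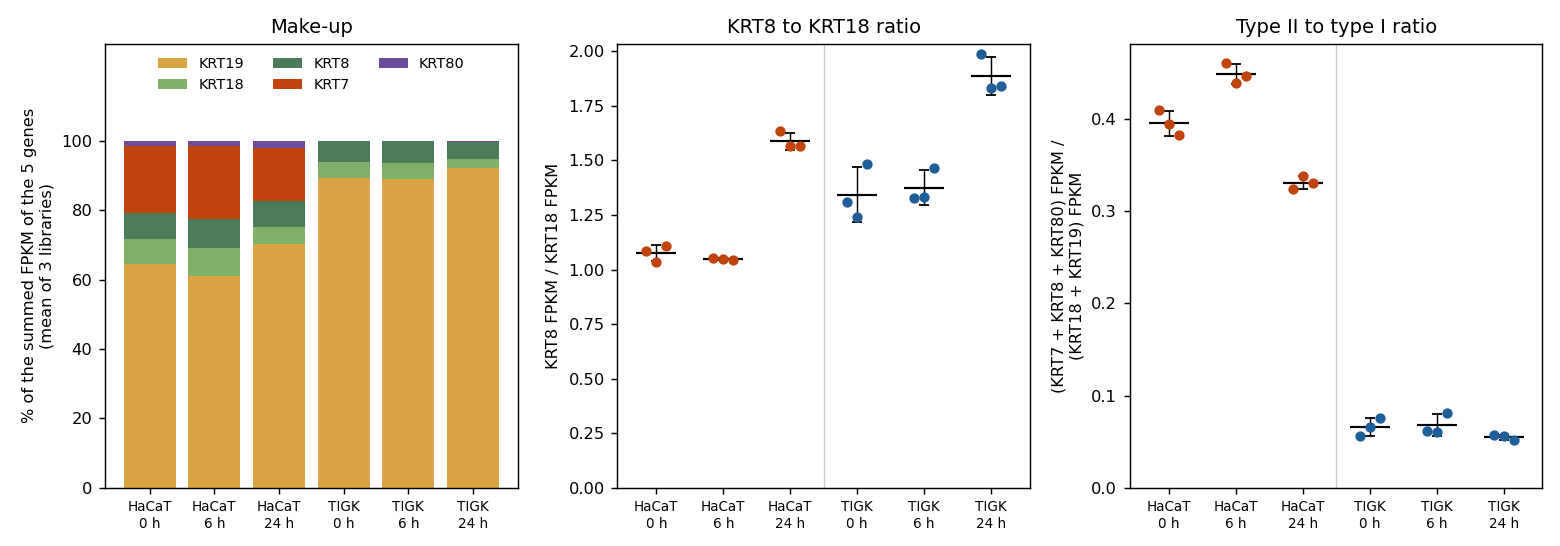
Left, share of each keratin in the summed FPKM of the 5 genes (bars, means of 3 libraries); middle, KRT8 over KRT18 in FPKM; right, type II over type I members in FPKM, with points as libraries, lines as means and bars as SD. KRT7 makes up 19.3% of the HaCaT bar at 0 h and cannot be seen in TIGK, and the KRT8 to KRT18 ratio is higher at 24 h than at 0 h in both lines.

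At 6 h after the scratch none of the 5 keratins was called in either line. In HaCaT, where edgeR called 0.201% of all genes, KRT8 and KRT18 had unadjusted p-values of 0.0193 and 0.0135 and log2 fold changes, 6 h over 0 h, of 0.19 ± 0.08 (SE) and 0.22 ± 0.08. The adjusted values were 0.505 and 0.484, and the count over the 5 genes was 2 at an unadjusted p under 0.05 and 0 with DESeq2 and with limma. In TIGK, where 3.62% of all genes were called, the 5 log2 fold changes lay between -0.33 ± 0.40 (KRT7) and 0.12 ± 0.08 (KRT8), with 0 genes at an unadjusted p under 0.05 and 0 with DESeq2 or limma. No member is listed in the authors' deposited tables of 6 h against 0 h.

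At 24 h the same 3 keratins were called in both lines, in the same directions. KRT18 and KRT7 fell and KRT80 rose, while KRT8 and KRT19 were not called. The background was 31.4% of genes called in HaCaT and 32.3% in TIGK. The median log2 fold change of the 5 was 0.01 in HaCaT and -0.15 in TIGK, against 0.00 and -0.01 over all genes. Both medians of the 5 are the values of KRT8. Summed fibroblast markers moved too, to 37.5 to 40.5 CPM in HaCaT at 24 h against 24.4 to 28.8 CPM at 0 h, and to 389 to 434 CPM in TIGK at 24 h against 235 to 273 CPM at 0 h. The authors' deposited tables of 24 h against 0 h give log2 fold changes of -0.55 for KRT18, 0.55 for KRT80 and -0.35 for KRT7 in HaCaT, and of -0.63 for KRT18 and 0.78 for KRT80 in TIGK.

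KRT18 fell to 138, 140 and 140 CPM in HaCaT at 24 h, against 203, 210 and 198 CPM at 0 h, and to 188, 196 and 234 CPM in TIGK at 24 h, against 306, 364 and 299 CPM at 0 h. Neither line's groups overlapped. The fall was 1.47-fold in HaCaT (log2 -0.55 ± 0.08 SE, adjusted p = 1.64e-05) and 1.57-fold in TIGK (-0.65 ± 0.08, adjusted p = 1.77e-06). Against 6 h, its highest level in both lines, it was 1.71-fold lower at 24 h in HaCaT (adjusted p = 8.62e-08) and 1.66-fold lower in TIGK (adjusted p = 2.32e-07). Between 24 h and 6 h, 3 of the 5 keratins were called in HaCaT (KRT7, KRT18 and KRT80), where 35.7% of all genes were called, and 3 in TIGK (KRT8, KRT18 and KRT80), where 36.7% were.

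KRT8 was not called between 24 h and 0 h in either line. In HaCaT its log2 fold change, 24 h over 0 h, was 0.01 ± 0.08 (SE, adjusted p = 0.948), and in TIGK it was -0.15 ± 0.08 (adjusted p = 0.128), or -0.24 without library C of TIGK at 24 h (adjusted p = 0.0169). Between 24 h and 6 h KRT8 fell 1.21-fold in TIGK (adjusted p = 0.00521, and 0.0518 when only those 2 groups were fitted), whereas in HaCaT the difference of -0.18 ± 0.08 was not called (adjusted p = 0.0689, and 0.0296 without library B of HaCaT at 6 h). The ratio of KRT8 to KRT18 in FPKM was accordingly higher at 24 h, at 1.59 ± 0.039 against 1.07 ± 0.038 at 0 h in HaCaT and at 1.89 ± 0.086 against 1.34 ± 0.13 at 0 h in TIGK (SD, n = 3). The libraries at 24 h and 0 h did not overlap in either line; with 3 against 3 the exact two-sided permutation test gave p = 0.1, its smallest value, in each. At 6 h the ratio was 1.05 ± 0.0040 in HaCaT and 1.38 ± 0.080 in TIGK, overlapping with 0 h in both lines. The authors' FPKM used 6881 bases as the length of KRT8 and 3218 bases as that of KRT18. The principal transcripts have 2126 and 1562 bases. With those lengths the ratio at 24 h and 0 h was 2.49 and 1.69 in HaCaT and 2.96 and 2.11 in TIGK. The level of the ratio thus depends on the lengths used. Fixed lengths change the ratio of every library by the same factor, so the order of the groups could not change.

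KRT80 rose in both lines. It stood at 74.9, 83.1 and 79.1 CPM in HaCaT at 24 h, against 54.3, 54.9 and 53.5 CPM at 0 h, and at 14.5, 14.96 and 17.8 CPM in TIGK at 24 h, against 8.3, 11.1 and 8.51 CPM at 0 h. In both lines each library at 24 h was above each at 0 h. The rise was 1.46-fold in HaCaT (log2 0.54 ± 0.11 SE, adjusted p = 0.000517) and 1.70-fold in TIGK (0.76 ± 0.13, adjusted p = 7.62e-05). Against 6 h it was 1.29-fold higher in HaCaT (adjusted p = 0.0107) and 1.72-fold higher in TIGK (adjusted p = 5.47e-05). The HaCaT call against 6 h was lost without library B of HaCaT at 6 h (adjusted p = 0.064) and without library B of HaCaT at 24 h (adjusted p = 0.0509).

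KRT7 fell 1.28-fold in HaCaT at 24 h, to 566, 523 and 578 CPM against 735, 745 and 651 CPM at 0 h (log2 -0.35 ± 0.11 SE, adjusted p = 0.0117). Against 6 h it was 1.42-fold lower (adjusted p = 0.000446), a call lost with limma on log2(FPKM + 0.1) (-0.48, adjusted p = 0.112). The groups did not overlap, but the call against 0 h was lost without library B of HaCaT at 0 h (adjusted p = 0.0524) or library B of HaCaT at 24 h (adjusted p = 0.0581). In TIGK the fitted log2 fold change, 24 h over 0 h, was -1.75 ± 0.52 (adjusted p = 0.0111), and it rested on 6, 3 and 0 counts at 24 h against 14, 15 and 12 counts at 0 h. Without library C of TIGK at 24 h, the one with no count, that call was lost (-1.20, adjusted p = 0.062). The difference between 24 h and 6 h in TIGK was not called (-1.42 ± 0.56, adjusted p = 0.0504), and was called without library A of TIGK at 24 h (-2.36, adjusted p = 0.0142), without library A or B of TIGK at 6 h (adjusted p = 0.0449 and 0.0272) and without library C of TIGK at 0 h (adjusted p = 0.0404). It was also called with DESeq2 (adjusted p = 0.0273), RLE scaling (0.0498), no filter on low counts (0.0266), a filter of 10 CPM in 3 libraries (0.0481) and limma on log2(FPKM + 0.1) (0.0369), so it lay at the threshold.

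KRT19 was not called in any comparison between times in the fit of all 18 libraries. Between 24 h and 6 h in HaCaT it was 0.17 ± 0.09 (adjusted p = 0.179), and it was called there when scaled by library totals alone (0.24, adjusted p = 0.0278) and when only those groups were fitted (0.17, adjusted p = 0.012). At 24 h against 0 h its log2 fold change was 0.12 ± 0.09 (SE, adjusted p = 0.367) in HaCaT and 0.15 ± 0.09 (adjusted p = 0.253) in TIGK. The spread among its TIGK libraries, 757 CPM (SD) around a mean of 5165 CPM at 24 h, was wider than the difference between the times.

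**Figure D4:**
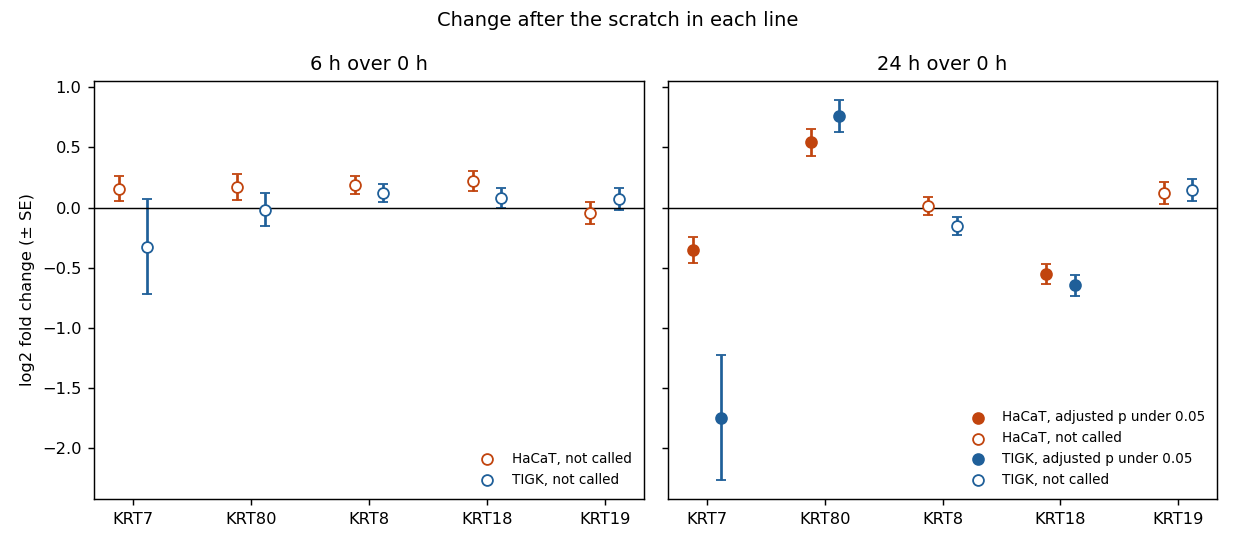
Log2 fold change of each keratin, 6 h over 0 h (left) and 24 h over 0 h (right), in HaCaT and TIGK; bars are SE, filled points have an adjusted p under 0.05. At 6 h no point is filled; at 24 h KRT7 and KRT18 are below 0 and KRT80 is above 0 in both lines, with the TIGK value of KRT7 resting on 6, 3 and 0 counts.

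Whether the lines responded differently was tested directly as the difference of the 2 responses. None of the 5 keratins was called at 6 h, at 24 h or in the change between 6 h and 24 h, where edgeR called 0.752%, 13.5% and 17.5% of all genes. At 24 h the difference, HaCaT response minus TIGK response on the log2 scale, was 0.16 ± 0.11 (SE) for KRT8, 0.10 ± 0.12 for KRT18, -0.03 ± 0.13 for KRT19 and -0.22 ± 0.17 for KRT80. That of KRT7 was 1.39 ± 0.54 (adjusted p = 0.0889), with the TIGK side resting on the counts given above. It was called without library C of TIGK at 0 h (1.72, adjusted p = 0.036) and without library A of TIGK at 24 h (2.33, adjusted p = 0.0293). At an unadjusted p under 0.05 the count was 0 at 6 h, 1 at 24 h (KRT7) and 1 for the later change (KRT80, -0.41 ± 0.17), and KRT80 was called there without library B of TIGK at 6 h (-0.59, adjusted p = 0.0213). DESeq2 called 0, 1 and 0, limma on log2(FPKM + 1) called 0, 0 and 1 (KRT7, with the sign turned to -0.37), and limma on log2(FPKM + 0.1) called 0 in each. These values do not show that the responses were equal.

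The order of the 6 groups summarised the levels of each gene. KRT7 ran from HaCaT at 6 h, 0 h and 24 h down to TIGK at 0 h, 6 h and 24 h, with overlapping ranges between the first 2 and between neighbours among the TIGK groups. KRT80 ran from HaCaT at 24 h, 6 h and 0 h to TIGK at 24 h and then TIGK at 0 h and 6 h, of which only the last 2 overlapped. For KRT19 the neighbours among the 3 TIGK groups overlapped, and so did those among the 3 HaCaT groups. KRT8 and KRT18 were highest in TIGK at 6 h, and KRT18 alone was lowest in HaCaT at 24 h.

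Genes whose levels resembled each keratin most were ranked by Pearson's r of log2 CPM over the 18 libraries, among 10708 protein-coding genes averaging at least 5 CPM. These libraries share 2 lines and 3 times, so r mostly follows the lines, and no p is given. KRT7 was closest to IL13RA1, a receptor chain for interleukin-13 (r = 0.996), to ADAM8 and to BACE2, both proteases. KRT8 was closest to CCND3, a G1 cyclin (0.988), and KRT18 to PDLIM7, an actin-associated adaptor (0.985). KRT19 was closest to IGFBP2, an IGF-binding protein (0.996), and KRT80 to GPX2, a glutathione peroxidase (0.993). With the mean of each line subtracted, so that time and library remain, the closest genes were IL13RA1 to KRT7 (0.864), LY6K to KRT8 (0.879), RBM3 and PDLIM7 to KRT18 (both 0.979), OTUD5 to KRT19 (0.914) and CTNNBIP1 to KRT80 (0.934). The value for KRT7 rests in part on its TIGK libraries, which held 0 to 16 counts of it. Between members on this second scale, r was 0.755 for KRT8 with KRT18 and -0.733 for KRT18 with KRT80.

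Keratin filaments are tied to desmosomes and hemidesmosomes by linker proteins. A list of 12 genes, put together as keratin linkers and junction anchors, was read beside the keratins. Not every gene in it need be a linker. For this list and those that follow, the share of all genes called is the background: 62.6% between the lines at 0 h, 31.4% between 24 h and 0 h in HaCaT and 32.3% in TIGK. At 0 h, 8 of the 12 were higher and 2 lower in HaCaT, with a median log2 of 0.66 against -0.04 over all genes. JUP (plakoglobin) averaged 2677 ± 51.5 CPM in HaCaT and 1075 ± 121 CPM in TIGK, and EVPL (envoplakin) averaged 270 ± 5.15 CPM in HaCaT and 107 ± 12 CPM in TIGK (SD, n = 3). EPPK1 (epiplakin), which binds KRT8 and KRT18 filaments, was lower in HaCaT, at 102 ± 8.85 CPM against 364 ± 31.2 CPM in TIGK. The counts at 6 h and at 24 h were also 8 higher and 2 lower, where 62.6% and 61.7% of all genes were called. At 24 h against 0 h, 2 rose and 3 fell in HaCaT (31.4% of all genes called) and 6 rose and 2 fell in TIGK (32.3%). PLEC (plectin), the linker of keratins to hemidesmosomes, fell to 1892 ± 163 CPM in HaCaT at 24 h, against 3068 ± 270 CPM at 0 h (edgeR adjusted p = 1.37e-06). In TIGK PLEC was lower at 24 h too, at 3484 ± 535 CPM against 4540 ± 242 CPM at 0 h. PNN (pinin) fell to 82.5 ± 7.75 CPM in TIGK at 24 h, against 129 ± 10.2 CPM at 0 h (edgeR adjusted p = 3.56e-06). In HaCaT PNN was lower at 24 h too, at 87.0 ± 0.39 CPM against 118 ± 5.03 CPM at 0 h.

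The list of genes known to bind, modify or turn over KRT8 and KRT18 held 13, all of them tested. At 0 h, 3 were higher and 7 lower in HaCaT, with a median log2 of -0.34. SFN (14-3-3 sigma) averaged 2072 ± 89.0 CPM in HaCaT and 754 ± 35.0 CPM in TIGK, while PRKCE, a kinase of KRT8 and KRT18, averaged 4.64 ± 0.76 CPM in HaCaT and 12.7 ± 1.05 CPM in TIGK. At 24 h against 0 h, 0 rose and 2 fell in HaCaT. Those were SFN, at 1448 ± 69.6 CPM against 2072 ± 89.0 CPM (adjusted p = 2.09e-05), and YWHAZ (14-3-3 zeta), at 676 ± 23.3 CPM against 819 ± 29.4 CPM (adjusted p = 0.000935). In TIGK 3 rose and 1 fell, among them HSPB1, a small heat shock protein that binds keratins, at 2779 ± 437 CPM at 24 h against 1809 ± 418 CPM at 0 h (adjusted p = 0.00174). The line difference in the 24 h response was called for SFN and YWHAZ, both with a lower response in HaCaT. These 2 of 13 are a share close to the 13.5% of all genes called there.

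Transcription factors known to act on simple keratin genes or on epithelial identity numbered 24, of which 22 were tested. Between the lines they went both ways, with 9 higher and 8 lower in HaCaT at 0 h. GATA3 averaged 36.9 ± 3.34 CPM in HaCaT and 9.14 ± 1.26 CPM in TIGK, and ETS2 averaged 130 ± 10.4 CPM in HaCaT and 320 ± 32.6 CPM in TIGK. At 24 h against 0 h, 13 rose and 0 fell in HaCaT, where 31.4% of all genes were called (2706 up and 2765 down), and 13 rose and 2 fell in TIGK, where 32.3% were (2655 up and 2962 down). The medians of the list were 0.39 in HaCaT and 0.51 in TIGK on the log2 scale, against 0.00 and -0.01 over all genes. JUN, an AP-1 subunit, rose to 287 ± 5.35 CPM in HaCaT at 24 h, against 89.3 ± 4.21 CPM at 0 h (adjusted p = 1.44e-10), and to 276 ± 37.2 CPM in TIGK at 24 h, against 110 ± 18.3 CPM at 0 h (adjusted p = 8.45e-09). KLF4, a factor of epithelial differentiation, rose to 77.4 ± 1.03 CPM in TIGK at 24 h, against 31.4 ± 5.40 CPM at 0 h (adjusted p = 4.16e-09). In HaCaT KLF4 was higher at 24 h too, at 114 ± 6.25 CPM against 70.0 ± 1.14 CPM at 0 h. OVOL1 rose to 75.8 ± 5.84 CPM in HaCaT at 24 h, against 27.6 ± 2.91 CPM at 0 h (adjusted p = 1.34e-08). In TIGK OVOL1 was higher at 24 h too, at 25.2 ± 3.02 CPM against 11.7 ± 2.74 CPM at 0 h. Already at 6 h, 6 of the 22 rose and 1 fell in TIGK, where 3.62% of all genes were called. In HaCaT 1 rose, where 0.201% of all genes were called.

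Of 18 other genes that mark simple and glandular epithelia 13 were tested. At 0 h 5 were higher and 3 lower in HaCaT, a share close to the 62.6% called over all genes, with a median log2 of 0.01. CLDN7, a tight junction claudin, averaged 82.1 ± 6.97 CPM in HaCaT and 41.2 ± 2.61 CPM in TIGK, and AGR2, a disulfide isomerase of mucus-secreting cells, averaged 6.27 ± 0.78 CPM in HaCaT and 38.7 ± 3.45 CPM in TIGK. EPCAM, at 80.2 CPM in HaCaT and 88.9 CPM in TIGK, was not called. At 24 h against 0 h, 3 rose and 4 fell in HaCaT (31.4% of all genes called), and 3 rose and 3 fell in TIGK (32.3%).

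Of the 12 intermediate filament genes outside the keratin families, 9 were tested, and all 9 were called between the lines at 0 h, 3 higher and 6 lower in HaCaT, where 62.6% of all genes were called. NEFL, a neurofilament chain, averaged 604 ± 3.34 CPM in HaCaT and 63.5 ± 11.5 CPM in TIGK. NEFM, another neurofilament chain, averaged 0.0833 ± 0.0943 CPM in HaCaT and 53.6 ± 3.25 CPM in TIGK. LMNA, the lamin A gene of the nuclear lamina, averaged 2117 ± 48.0 CPM in HaCaT and 760 ± 35.8 CPM in TIGK. The line difference in the 24 h response was called for 7 of these 9, 6 upward and 1 downward, against 13.5% of all genes. NES (nestin) fell to 40.2 ± 4.48 CPM in TIGK at 24 h, against 140 ± 10.3 CPM at 0 h, and stood at 10.6 ± 2.10 CPM in HaCaT at 24 h, against 8.41 ± 2.65 CPM at 0 h (adjusted p of the difference = 9.37e-07).

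The keratins of stratified epithelia gave the setting for these levels. Of 12 stratified type II keratins tested, 4 were higher and 3 lower in HaCaT at 0 h, and of 8 stratified type I keratins 3 were higher and 3 lower. KRT15 averaged 508 ± 4.38 CPM in HaCaT and 250 ± 31.6 CPM in TIGK. Near-absence from 1 line at 0 h was not particular to KRT7. KRT4 averaged 84.8 ± 11.1 CPM in HaCaT and 0.701 ± 0.350 CPM in TIGK. The other way, KRT75 averaged 0.0206 ± 0.0357 CPM in HaCaT and 7.49 ± 1.25 CPM in TIGK. KRT17, a wound-activated type I keratin, fell to 2599 ± 178 CPM in HaCaT at 24 h, against 4660 ± 147 CPM at 0 h (adjusted p = 3.1e-08), while KRT16, another, rose to 826 ± 150 CPM against 360 ± 81.3 CPM (adjusted p = 5.88e-06). At 24 h against 0 h the type I list had 3 that rose and 1 that fell in HaCaT and 5 that rose and 0 that fell in TIGK.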

How the data were processed

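RNA-seq libraries of HaCaT and TIGK cells were prepared from total RNA by a company, per the labels' protocols. HISAT2 2.0.5, StringTie 1.3.3b, featureCounts 1.5.0-p3 and hg38 are named in the submitters' processing notes. The authors deposited whole-number read counts per gene and FPKM, and comparison tables with log2 fold changes and adjusted p-values; how those p-values were made is not given in the sources used here. FPKM of the authors divides counts by gene length.

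Counts were tested with edgeR 4.0.16 (R 4.3.3): filterByExpr, TMM scaling and a quasi-likelihood fit of 6 group means to 18 libraries with 12 residual degrees of freedom. Calls are two-sided at a Benjamini-Hochberg adjusted p under 0.05 over all 17409 genes tested. The SE is the absolute log2 fold change over the square root of F. Intervals of SD are over the 3 libraries of a group. Nothing in the labels says that these were separate cultures, so p-values may measure technical spread only. Column letters are not tied to the labels' replicate numbers.

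Alternatives used RLE scaling, library totals, DESeq2 1.42.0, other filters, only the groups compared, a block by letter, limma 3.58.1 on log2(FPKM + 1) and log2(FPKM + 0.1), and each library left out. The scripts were tested on simulated data. Sequences and exon positions come from GENCODE v29. In each list the genes named are the up to 3 with the lowest adjusted p in the comparison described. EPCAM, KRT4 and KRT75 were chosen after their values were seen. The members and lists were chosen with earlier results of these data known. Some sequences and 1 gene of a list are not reported here.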

Additional observations from a re-analysis of the deposited data

How the results depend on the processing

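All 15 line differences kept their direction and call under every alternative run and with each library left out. The count of members called changed as follows. For the line difference in the 24 h response it was 1 (KRT7) in place of 0 with no filter on low counts, with DESeq2 and without library C of TIGK at 0 h together with library C at 6 h, and 0 to 1 with single libraries left out. For the 6-to-24 h change it was 1 with limma on log2(FPKM + 1) and 0 to 1 with single libraries left out. For HaCaT at 24 h against 6 h it was 5 in place of 3 when only the groups compared were fitted, 4 with library totals (KRT19 added) and without both libraries C (KRT8 added), 2 with limma on log2(FPKM + 0.1), and 2 to 4 with single libraries left out. For TIGK at 24 h against 6 h it was 4 in place of 3 (KRT7 added) with RLE scaling, DESeq2, no filter, the filter of 10 CPM and limma on log2(FPKM + 0.1), 2 when only the groups compared were fitted, and 3 to 4 with single libraries left out. It was 2 in place of 3 at 24 h against 0 h in HaCaT with limma on log2(FPKM + 0.1) and without library B of 0 h or of 24 h, and 2 in TIGK with limma on log2(FPKM + 1) and when only the groups compared were fitted, where KRT7 had no value after the filter. With a replicate block by letter it was 4 in HaCaT at 24 h against 6 h, KRT8 being added (-0.18, adjusted p = 0.0326), and no other member's call changed; the letters were not taken to pair the libraries, since same-letter deviations correlated at -0.03 to 0.048, except in TIGK at 6 h against 0 h (0.105, 0.094 and 0.388). Genes called over the whole table at 6 h against 0 h in HaCaT were 70 with the block and 35 without it. The cause of these changes was not tested.

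Signs turned only for values that were not called in the reported fit. The line difference in the 24 h response of KRT19 (-0.03) was 0.0635 with library totals, 0.0002 with no filter and 0.0559 without both libraries C, and -0.097 to 0.0941 with single libraries left out. That of KRT7 was -0.17 with limma on log2(FPKM + 1), and its 6-to-24 h difference was -0.37 and called (adjusted p = 0.0158); a pseudocount of 1 FPKM is above every TIGK value of KRT7. KRT19 in TIGK at 24 h against 6 h was -0.0174 without both libraries C and -0.0555 to 0.138 with single libraries left out. With single libraries left out, the ranges were -0.20 to 0.12 for KRT80 and -0.0112 to 0.162 for KRT19 in TIGK at 6 h against 0 h, -0.003 to 0.0183 for KRT8 in HaCaT at 24 h against 0 h, and -0.11 to 0.0562 for KRT18 in the 6-to-24 h line difference.

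KRT7 at 24 h against 0 h lost its call in TIGK with limma on log2(FPKM + 1) (-0.17, adjusted p = 0.0895) and in HaCaT with log2(FPKM + 0.1) (-0.33, adjusted p = 0.297). The share of keratin counts held by the 5 genes became 6.00% in HaCaT at 6 h and 14.7%, 13.4% and 13.3% in TIGK at 0 h, 6 h and 24 h when FPKM replaced counts. The lengths of principal transcripts, an alternative chosen after seeing the data, raised the type II to type I ratio at 0 h to 0.579 in HaCaT and 0.124 in TIGK. Depth limits KRT7 in TIGK, where a library held at most 16 counts.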
